A study of Mus musculus with 9 samples.

Results

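The odorant receptor (OR) genes whose symbols run from Olfr90 to Olfr137 lie beside the major histocompatibility complex (MHC) on chromosome 17 and were taken as all genes named Olfr followed by an integer in that range. There were 45 of them among 24421 genes with raw counts, and 1080 other Olfr genes. Of the 48 integers in the range, 3 had no gene here and were not analysed here. RNA was sequenced from whole tissue of the main olfactory epithelium (MOE), taken from mice at postnatal day 14, with 3 wild-type (WT), 3 heterozygous (het, TAAR enhancer 2 +/-) and 3 homozygous (homo, TAAR enhancer 2 -/-) libraries. TAAR enhancer 2 lies between Taar6 and Taar7a on chromosome 10 and was removed in the germ line with CRISPR-Cas9. The strain is labelled C57BL/6, Cas9 was injected into C57BL/6J zygotes, and the mouse lines are also described as being on mixed backgrounds of C57BL/6J and 129. The deletion mice come from 1 established line, the mutant alleles are carried by every cell, and the WT mice carry no engineered allele. The methods state that both sexes were used and the labels give no sex. The genotypes were littermates and, by the legends of the study, the libraries of a genotype stand for separate mice, so p-values measure the spread between mice. The study made the deletion to learn what TAAR enhancer 2 does in Taar gene expression. Here the genotypes were compared to ask whether receptor genes on a chromosome other than that of the deleted element differ with the deletion.

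ORs are G protein-coupled receptors, and a mature olfactory sensory neuron (OSN) expresses a single OR gene from a single allele. The choice depends on enhancers bound by the transcription factors Lhx2 and Ebf with the cofactor Ldb1, and it is held by a feedback signal from the receptor protein. The MHC-linked genes are class II ORs, and they form one of the larger OR clusters of the mouse. They are interspersed with nonclassical MHC class I genes, and the linkage of OR genes to the MHC is also found in other mammals.

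In GENCODE M21 (genome build GRCm38, the build mm10 used for the reads), 44 of the 45 genes had a model, and they spanned chr17:37083871-38336643, a length of 1.25 Mb. There were 22 genes on each strand. All 44 were annotated as protein-coding, with coding sequences of 915 to 1164 bases, and 42 had a single coding exon. Olfr100 had no model there. Over 946 pairs, identity between coding sequences ranged from 44.2% to 98.1% with a median of 55.7%. The nearest relative of a gene shared a median of 90.7% of its coding bases, and it was the next gene along the chromosome for 18 genes and at most 3 genes away for 29. Copies this close share reads. Of the 50-base windows in the transcripts of a gene, between 60.5% (Olfr98) and 100% occurred in no other gene, with a median of 91.6%, and only 15 genes had more than 95% of such windows. How reads that map to several genes were counted is not given in the sources used here, so levels of close copies are uncertain.

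A close pair is printed here because its members differed in level, as described below, although their coding sequences are nearly the same. Olfr101 and Olfr102 are neighbours on the minus strand and differ at 31 of 924 coding bases, with a longest identical run of 136 bases. Coding positions 89 to 238, the stretch with the most differences, are shown 5′ to 3′, with the 11 differing bases in capitals, from chr17:37300183-37300332 and chr17:37314145-37314294 (GRCm38, minus strand).
Olfr101: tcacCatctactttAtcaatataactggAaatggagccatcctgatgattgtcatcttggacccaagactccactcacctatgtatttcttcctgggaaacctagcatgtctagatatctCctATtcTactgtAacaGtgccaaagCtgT
Olfr102: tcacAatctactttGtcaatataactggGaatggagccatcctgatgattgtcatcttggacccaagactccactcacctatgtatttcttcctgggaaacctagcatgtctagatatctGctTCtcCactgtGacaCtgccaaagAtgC

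RefSeq promoter windows (GRCm38.p6, 250 bases before to 50 bases after a start) were matched by symbol for 35 of the 45 genes. In 32 of them the start lay within 90 bases of the coding exon. In 33 the start lay within 150 bases of a GENCODE transcript start, while those of Olfr95 and Olfr113 lay 1227 and 2242 bases away. Some gene models begin further upstream, such as that of Olfr124 at 37799888 with a RefSeq start at 37805069. Such upstream starts were not searched. Only the windows of Olfr110, Olfr119 and Olfr122 lie before an upstream noncoding exon. The parts of these 3 windows that overlap no annotated exon are shown, because Olfr110 and Olfr119 are 2 of the genes that moved between libraries. Capitals mark the 1 run of at least 20 bases, 21 bases long, that the printed Olfr119 and Olfr122 stretches share. The stretches lie at chr17:37492218-37492467 (Olfr110), chr17:37696435-37696563 (Olfr119) and chr17:37768392-37768606 (Olfr122), all on the plus strand.
Olfr110: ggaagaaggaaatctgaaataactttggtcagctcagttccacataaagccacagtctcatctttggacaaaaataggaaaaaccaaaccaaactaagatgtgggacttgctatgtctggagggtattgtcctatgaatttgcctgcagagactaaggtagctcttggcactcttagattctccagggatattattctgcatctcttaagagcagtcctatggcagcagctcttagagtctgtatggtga
Olfr119: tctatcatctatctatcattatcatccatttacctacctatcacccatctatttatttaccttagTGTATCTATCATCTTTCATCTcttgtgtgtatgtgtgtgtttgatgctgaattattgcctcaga
Olfr122: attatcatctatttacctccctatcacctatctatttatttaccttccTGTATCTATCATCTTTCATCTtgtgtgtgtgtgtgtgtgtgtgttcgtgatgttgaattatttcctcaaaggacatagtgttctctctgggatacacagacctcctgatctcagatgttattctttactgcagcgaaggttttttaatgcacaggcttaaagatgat

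A pair of motifs was searched in all windows. TAATTA, the core of a homeodomain site of the kind Lhx2 binds, was in 4 of the 35 windows (11.4%; Olfr123, Olfr124, Olfr132 and Olfr134), in 18.8% of 913 windows of other Olfr genes and in 5.29% of all 32851 windows. CCCNNGGG, a form of the site bound by Ebf factors, was in 5 of the 35 (14.3%; Olfr93, Olfr96, Olfr98, Olfr99 and Olfr108), in 2.63% of other Olfr windows and in 13.7% of all windows. The Olfr93 match lay in coding sequence, and the Olfr96 match spanned the start codon. In Olfr98, Olfr99 and Olfr108 the match was the same CCCTAGGG within closely similar sequence. The 5 matches are thus not 5 separate sites upstream of coding sequence. Each motif is its own reverse complement, so a match counts for both strands, and the motifs cannot overlap each other. The printed Olfr110, Olfr119 and Olfr122 stretches hold neither motif.

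Total counts were between 20527992 and 32262005 per library, with a median of 26174388. Levels are given as CPM (counts per 1e6 counts of the TMM-scaled library), and between genes as CPM per kb of coding sequence. A floor of 3 counts corresponds to 0.0928 to 0.147 CPM in 1 library, and it covers counting error only. Libraries with replicate number 1 stood apart from those with numbers 2 and 3 in every genotype. WT replicate 3 stood apart from the other WT libraries in Lyz2 and Ptprc, markers of myeloid cells and leukocytes. Some of the results that rest on either are given with and without these libraries. The mature OSN markers (7 genes) summed to 6380 to 7349 CPM over the 9 libraries, with Omp, the olfactory marker protein, at 1999 to 2388 CPM, so that the defining markers of OSNs were present in each.

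Of the 45 genes, 44 were detected. Olfr100 had 0 counts in each of the 9 libraries, which allows a level up to the floor of 3 counts per library. Per kb of coding sequence, the mean level over the 9 libraries ranged 129.6-fold, from 0.134 CPM per kb for Olfr102 to 17.3 for Olfr124, with a median of 3.23. Olfr124 (chr17:37799888-37808617, plus strand) was the highest at 17.3 ± 2.62 CPM per kb (SD, n = 9), followed by Olfr131 (chr17:38081624-38088693, minus strand) at 11.99 ± 1.64 and Olfr136 (chr17:38329831-38336643, plus strand) at 9.52 ± 1.55. Olfr124 was above Olfr131, and Olfr131 above Olfr136, in 9 of 9 libraries. Further down the order most neighbours could not be told apart. In 39 of 43 steps the difference between neighbours was smaller than the larger of their SDs over the libraries, and the other 4 steps were those from Olfr124 to Olfr131, from Olfr131 to Olfr136, from Olfr112 to Olfr129 and from Olfr137 to Olfr108.

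In the 9 libraries Olfr124 had 14.9, 18.8 and 13.2 in WT, 15.2, 14.9 and 21.5 in het and 16.9, 16.5 and 15.6 in homo CPM. The 3 genotypes overlapped, and the highest library was het replicate 3. By mean CPM, Olfr124 was the 14th highest of 1125 Olfr genes. The median of the 45 genes was 2.95 CPM against 2.47 CPM for the other Olfr genes, and 27 of the 45 were above the latter value. The 10 genes with the highest mean CPM held 47.8% of all counts of the cluster and Olfr124 alone held 9.61%.

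Olfr131 had 9.12, 10.9 and 11.5 in WT, 10.08, 10.5 and 12.9 in het and 10.11, 13.1 and 13.5 in homo CPM. Its lowest library in WT, het and homo was the one numbered 1. For Olfr136 the levels were 8.14, 7.64 and 8.26 in WT, 6.91, 10.27 and 11.1 in het and 7.84, 9.97 and 9.999 in homo CPM, and the WT libraries lay in a narrow range inside that of het. Olfr116 (chr17:37620577-37627199, minus strand) had 6.82, 8.29 and 5.45 in WT, 7.62, 8.08 and 9.23 in het and 7.07, 9.22 and 9.26 in homo CPM. It overlaps Olfr115 on the same strand over 6533 bases, so reads in the shared part can belong to either gene.

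Olfr99 had 9.57, 6.77 and 5.56 in WT, 7.62, 7.48 and 8.16 in het and 8.57, 8.86 and 7.58 in homo CPM, with both the highest and the lowest library in WT. Olfr112 had 6.57, 7.89 and 3.98 in WT, 6.39, 5.51 and 7.72 in het and 7.12, 7.50 and 7.95 in homo CPM, and WT replicate 3 was the only library under 4 CPM. Olfr129 had 6.62, 5.19 and 4.53 in WT, 5.06, 4.65 and 6.14 in het and 4.67, 7.28 and 6.13 in homo CPM, without an order among the genotypes. Of the 10 genes with the highest mean CPM, 9 were also the highest per kb of coding sequence, and Olfr101 took the place of Olfr132. Where the length of all annotated exons was used in place of the coding length, 6 of the 10 highest genes were the same, and Olfr131 came first at 6.26 CPM per kb, above Olfr99 at 4.38 and Olfr124 at 3.51.

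Some close copies differed in level and others did not. Olfr101 and Olfr102, shown above, share 96.6% of their coding bases, and the level of Olfr101 per kb was 39.0 times that of Olfr102. Olfr102 had 0, 9 and 3 raw counts in WT, 3, 1 and 4 in het and 2, 2 and 6 in homo, so that most libraries were at or under the floor. Olfr108 had 6, 5 and 7 raw counts in WT, 9, 8 and 2 in het and 6, 6 and 2 in homo. At this depth their log2 fold changes of homo against WT had SEs of 0.93 and 0.70, the largest of the tested members. A difference between genotypes of the size seen in other members was thus not detectable for them, and no difference was called in the other members either. Olfr110 was 1.78 times its 98.1% identical copy Olfr111, Olfr133 2.27 times its 95.4% identical copy Olfr135, and Olfr97 1.91 times its 94.5% identical copy Olfr98. These are ratios of means over the 9 libraries. In the libraries numbered 1, Olfr110 and Olfr111 were at 1.91 and 1.72 CPM (WT), 2.84 and 3.07 (het) and 4.04 and 2.99 (homo), so their order turned in het replicate 1. Olfr133 and its 95.3% identical neighbour Olfr134 had 5.12 ± 0.715 and 5.01 ± 0.695 CPM per kb (SD, n = 9), which differed by less than the spread between libraries. The ratio was 1.37 for Olfr117 over Olfr130, which lie 13 genes apart and share 97.2%. These ratios also depend on the length used. Per kb of all annotated exons, Olfr97 was at 0.961 CPM and Olfr98 at 1.07 CPM, so their order turned. By that length Olfr133 was at 1.53 and Olfr134 at 2.81 CPM per kb. Olfr101 over Olfr102, Olfr110 over Olfr111, Olfr117 over Olfr130 and Olfr133 over Olfr135 kept the order of their means. Which of 2 copies is given the shared reads affects these ratios, and that effect was not tested.

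**Figure D1:**
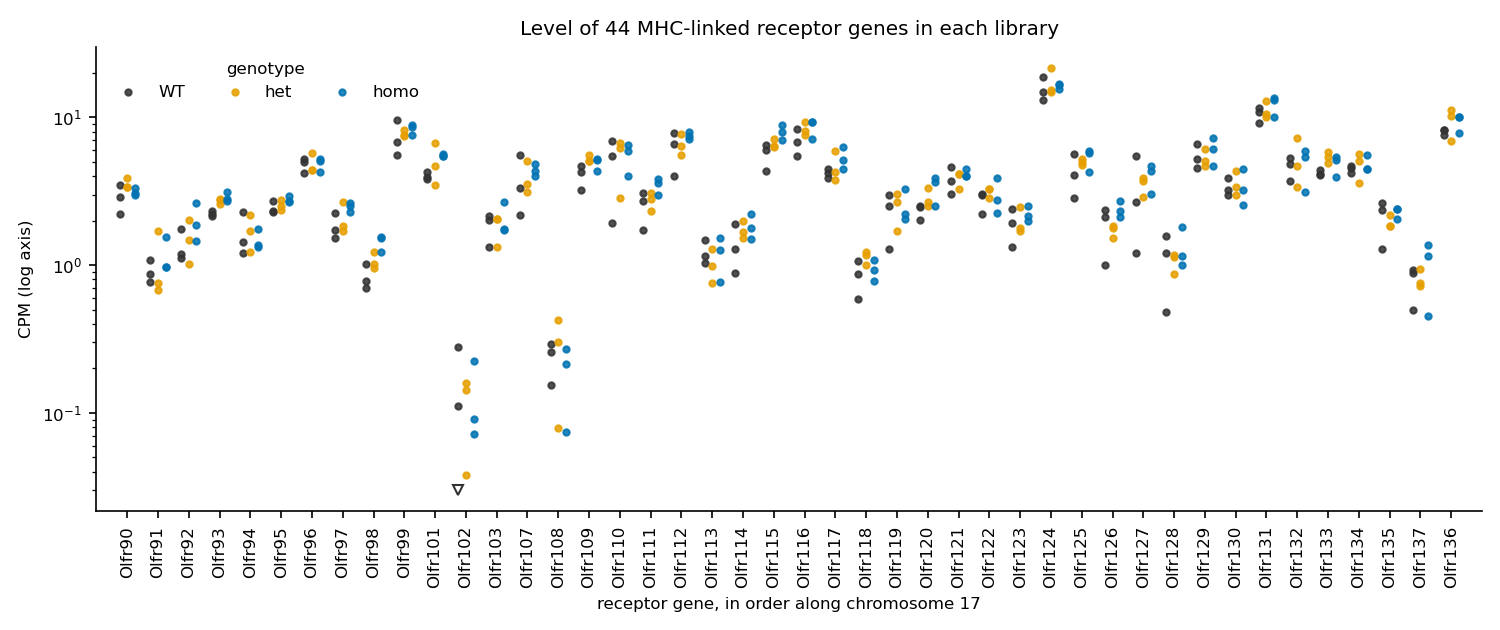
Level of each of the 44 detected receptor genes in each of the 9 libraries, in CPM on a log axis, with genes in their order along chromosome 17 and points coloured by genotype (3 libraries each). The open triangle marks Olfr102 in WT replicate 1, which had 0 counts and is placed at the foot of the axis. Levels differ far more between genes, from Olfr102 and Olfr108 to Olfr124, than between the genotypes of one gene.

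No MHC-linked receptor gene changed between genotypes at the threshold used, an adjusted p under 0.05 and a fold change over 1.5. In homo against WT, 0 of 44 genes were called (edgeR quasi-likelihood fit, p-values adjusted by Benjamini-Hochberg), where 0.0202% of 19775 genes were called. In het against WT, 0 of 44 were called beside 0% of all genes, and in homo against het 0 of 44 beside 0.00506%. A test over both genotype coefficients called 0 of 44, beside 0.00506% of all genes. DESeq2 and limma-voom also called 0 in each comparison, as did every alternative that was run. Homo against WT and het against WT share the WT libraries, so they are not independent. SEs of the 44 log2 fold changes of homo against WT ran from 0.17 for Olfr131 to 0.93 for Olfr102. In whole tissue, fewer neurons that express a receptor cannot be told apart from less receptor RNA per neuron.

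Most fold changes were small and positive. In homo against WT the median log2 fold change of the 44 genes was 0.22 (quartiles 0.13 and 0.37), 40 of 44 were above 0, and values ran from −0.32 for Olfr108 to 0.76 for Olfr98. The other 1044 tested Olfr genes had nearly the same median, 0.21, with 82.1% above 0, while all genes tested had a median of 0.004. In het against WT the median was 0.14 with 37 of 44 above 0, beside 0.12 for the other Olfr genes. In homo against het it was 0.13 with 32 of 44 above 0, beside 0.08 for the other Olfr genes. When libraries were scaled to the summed counts of the other Olfr genes, the medians of the 44 became 0.03, 0.01 and 0.07 in the 3 comparisons, and 26, 25 and 29 of 44 were above 0. Under this scaling the median of all genes was −0.18, −0.13 and −0.06. Over all fits that were run, 24, 14 and 22 of 44 genes were above 0 in every fit of the 3 comparisons, and the sign of 20, 29 and 17 was not fixed. Without WT replicate 3, 33 of 44 were above 0 in homo against WT and 32 of 44 in het against WT.

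Summed over the cluster, the level was 155, 170 and 143 CPM in WT, 164, 166 and 190 in het, and 166, 191 and 192 in homo. Group means were 156 ± 13.2, 173 ± 14.4 and 183 ± 14.8 CPM (SD, n = 3 each). Every homo library was above 2 of the WT libraries and 1 homo library was under WT replicate 2, so the groups overlapped. The homo mean was 117% of the WT mean, and within the libraries numbered 1 the homo library was at 107% of the WT library. In the libraries numbered 2 and 3 the homo mean was 123% of the WT mean. The sum of the other Olfr genes had a homo mean at 114% of its WT mean.

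As a share of all Olfr counts, the cluster was 4.66%, 4.40% and 4.18% in WT, 4.62%, 4.26% and 4.61% in het, and 4.72%, 4.32% and 4.61% in homo. The group means were 4.41% ± 0.242, 4.50% ± 0.207 and 4.55% ± 0.206 (SD, n = 3 each), which differed by less than the spread between libraries. The cluster had a share between 4.18% and 4.72% in every library. By replicate number, the share was 4.62% to 4.72% in the libraries numbered 1 and 4.18% to 4.61% in the other 6, without overlap. That split was seen after the values were known and was not tested. Blood cell markers (4 genes, of which Hba-a1 and Hbb-bs were at 0) summed to 71.3 to 437 CPM in WT, 63.0 to 196 in het and 59.5 to 149.8 in homo. Horizontal basal cell markers (3 genes) summed to 84.3 to 163 CPM in WT, 76.9 to 119 in het and 72.3 to 121 in homo, and sustentacular cell markers (4 genes) to 1705 to 2781, 2555 to 2789 and 2508 to 3008 CPM. Their part in the receptor levels was not tested.

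**Figure D2:**
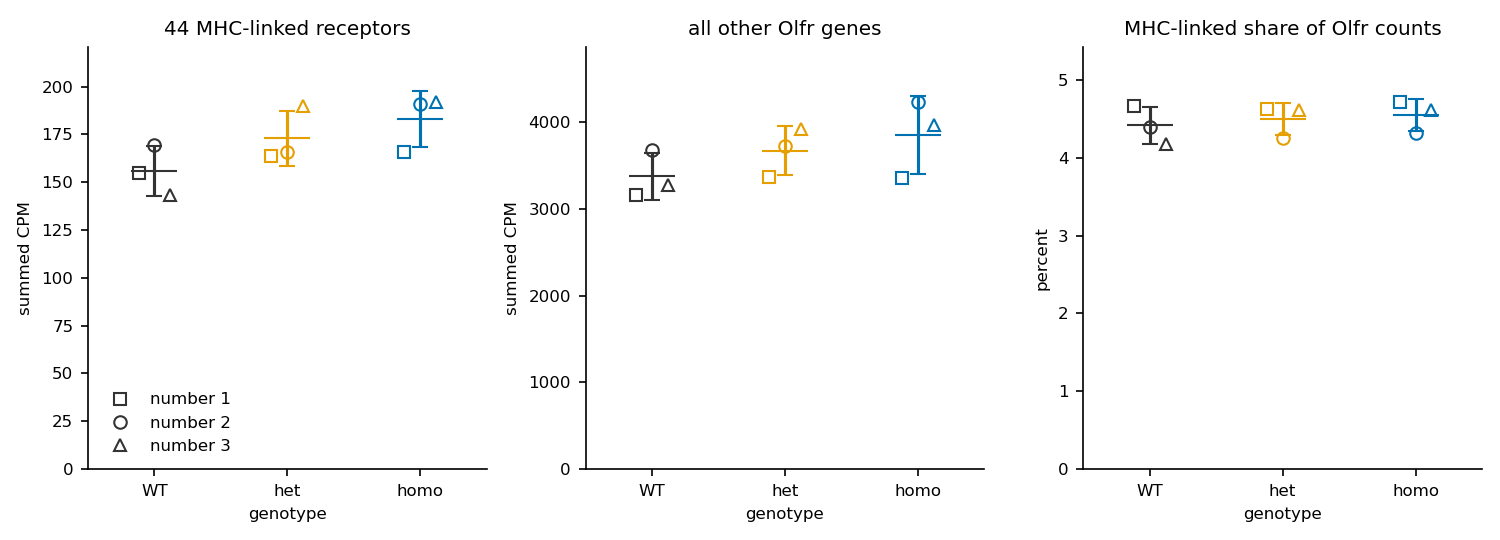
Summed CPM of the MHC-linked receptors (left), summed CPM of all other Olfr genes (middle) and the MHC-linked share of all Olfr counts in percent (right), by genotype, with 1 point per library shaped by its replicate number and the mean and SD of 3 libraries as bars. The sum of the cluster has a mean of 156 CPM in WT and 183 in homo with overlapping groups, and the share stays between 4.18% and 4.72%.

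Before adjustment, 3 of 44 genes had a p under 0.05 in homo against WT, all higher in homo, beside 0.779% of all genes higher and 2.67% lower at that p. Among the other Olfr genes 3.26% were higher and 0% lower at that p. The 3 genes were Olfr98, Olfr115 and Olfr120, each with an adjusted p of 1. The number of such genes was between 0 and 5 when each library was left out in turn. It was 0 without homo replicate 3, 1 without WT replicate 3 or without homo replicate 2, and 5 without WT replicate 1 or WT replicate 2. Over all genes tested, 195 of 19661 had such a p without homo replicate 3, 340 of 19613 without WT replicate 3 and 347 of 19643 without homo replicate 2. That number was 1247 of 19661 without WT replicate 1 and 1404 of 19621 without WT replicate 2, so it moved with the count of receptor genes. Scaled to the other Olfr genes, 0 of 44 had a p under 0.05. With a term for replicate number 1 in the edgeR model, 5 of 44 had such a p in homo against WT, beside 1320 of 19775 genes. The smallest adjusted p of the 44 was then 0.705. In het against WT that model gave 1 of 44, beside 590 of 19775 genes. Without that term, 0 of 44 had a p under 0.05 in het against WT (0.415% of all genes higher, 0.865% lower) or in homo against het (0.314% higher, 0.349% lower).

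Olfr98 (chr17:37262711-37263749, minus strand) is a low-level receptor with 0.785, 1.02 and 0.700 in WT, 1.23, 1.02 and 0.951 in het and 1.54, 1.22 and 1.52 in homo CPM. Every homo library was above every WT library, and het overlapped both. The mean level went from 0.835 ± 0.166 CPM (WT) to 1.43 ± 0.181 CPM (homo; SD, n = 3 each), and the log2 fold change was 0.76 (SE 0.27, unadjusted p 0.0186). Raw counts were 16 to 33 in WT and 34 to 41 in homo, and only 60.5% of its 50-base windows are its own. Olfr115 (chr17:37608940-37627109, minus strand) had 6.03, 6.46 and 4.35 in WT, 6.24, 6.42 and 7.09 in het and 6.98, 7.89 and 8.81 in homo CPM. Homo was again above WT without overlap, with a log2 fold change of 0.49 (SE 0.18, unadjusted p 0.0251), and WT replicate 3 was the lowest library. Without WT replicate 3 the fold change of Olfr115 was 0.33 and that of Olfr98 was 0.64. Olfr120 (chr17:37721808-37727220, plus strand) had 2.45, 2.505 and 2.03 in WT, 2.51, 3.32 and 2.65 in het and 2.49, 3.91 and 3.64 in homo CPM. Here homo replicate 1 overlapped WT, and the fold change was 0.53 (SE 0.23, unadjusted p 0.0470).

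The levels of 6 of 44 genes did not overlap between homo and WT with homo higher (Olfr93, Olfr97, Olfr98, Olfr101, Olfr115 and Olfr117), 13.6% of the genes, and 0 with homo lower. Among all genes tested 2.97% did so with homo higher and 2.71% with homo lower, and among the other Olfr genes 9.2% with homo higher. Olfr101 had 3.92, 4.24 and 3.80 in WT, 6.67, 3.48 and 4.71 in het and 5.49, 5.63 and 5.46 in homo CPM. Its homo libraries lay close together, while het held both the highest and the lowest library. Olfr97, the close copy of Olfr98, had 1.52, 2.26 and 1.73 in WT, 1.70, 1.85 and 2.65 in het and 2.63, 2.30 and 2.53 in homo CPM, and its het libraries overlapped both other genotypes. For Olfr117 the levels were 4.17, 4.45 and 3.91 in WT, 3.78, 5.89 and 4.24 in het and 4.49, 5.17 and 6.28 in homo CPM, with homo replicate 1 only just above the highest WT library.

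In het against WT the smallest unadjusted p-values were those of Olfr133, Olfr109 and Olfr93. Olfr133 (chr17:38145281-38151269, plus strand) had 4.37, 4.14 and 4.09 in WT, 5.35, 4.91 and 5.78 in het and 3.94, 5.13 and 5.39 in homo CPM, and its log2 fold change of het against WT was 0.35 (SE 0.17, unadjusted p 0.0721). All het libraries were above all WT libraries, whereas homo replicate 1 was the lowest of the 9. Olfr109 (chr17:37458916-37471590, plus strand) had 3.24, 4.70 and 4.24 in WT, 5.06, 5.51 and 5.07 in het and 4.31, 5.17 and 5.20 in homo CPM and a fold change of 0.36 (SE 0.18, unadjusted p 0.0822). Olfr93 (chr17:37140423-37161494, minus strand) had 2.31, 2.13 and 2.21 in WT, 2.74, 2.61 and 2.81 in het and 2.72, 2.80 and 3.12 in homo CPM and a fold change of 0.30 (SE 0.17, unadjusted p 0.119). For Olfr93 the WT libraries were under all libraries that carry the deletion. Together with Olfr120, these were the 4 of 44 genes (9.09%) with het above WT in every library, beside 2.01% of all genes and 6.23% of the other Olfr genes, and 0 had het below WT, beside 1.95%.

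In homo against het the smallest unadjusted p-values were those of Olfr98, Olfr126 and Olfr115, with log2 fold changes of 0.42 (SE 0.27, unadjusted p 0.146), 0.47 (SE 0.31, unadjusted p 0.168) and 0.26 (SE 0.18, unadjusted p 0.187). Olfr126 (chr17:37847483-37852057, plus strand) had 2.35, 2.103 and 0.995 in WT, 1.51, 1.85 and 1.78 in het and 2.72, 2.12 and 2.30 in homo CPM. Its homo libraries were above its het libraries, but 1 WT library lay in the homo range, another just under it, and WT replicate 3 was the lowest of the 9. It was the only gene of 44 with homo above het in every library (2.35% of all genes, 6.32% of the other Olfr genes), and Olfr90 was the only one with homo below het (1.81% of all genes). Olfr90 had 3.48, 2.88 and 2.21 in WT, 3.36, 3.36 and 3.88 in het and 3.31, 3.08 and 2.97 in homo CPM, with het above both other genotypes only in part, since WT replicate 1 lay among the het libraries.

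**Figure D3:**
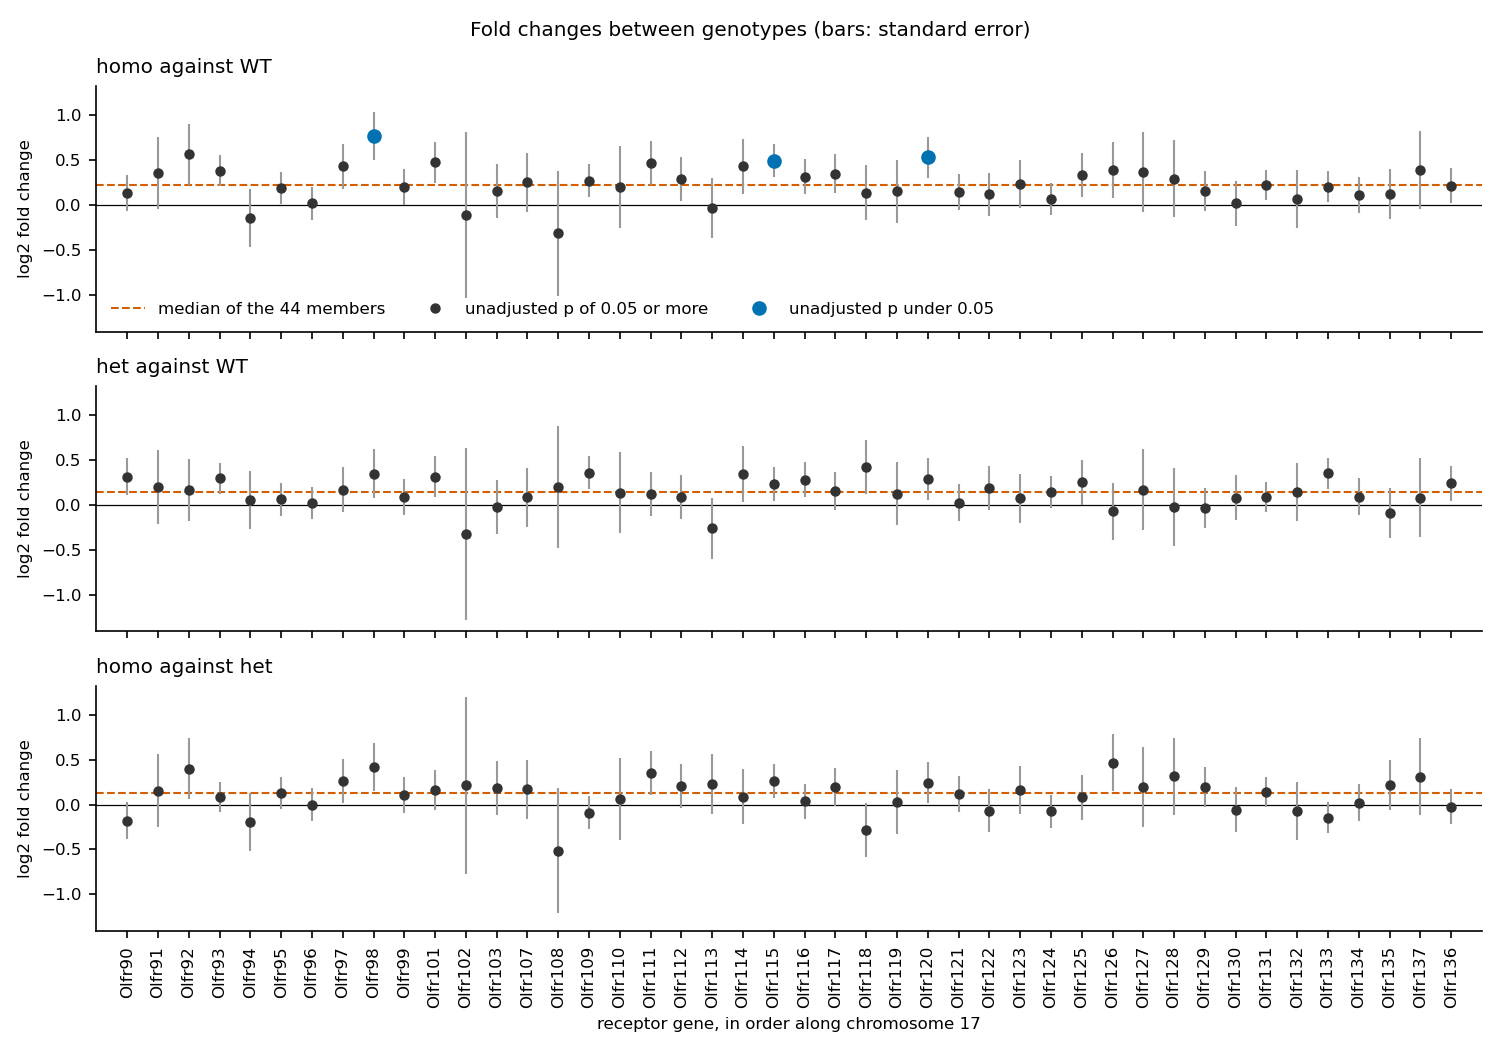
Log2 fold change (point) with its standard error (bar) of each of the 44 tested receptor genes in homo against WT (top), het against WT (middle) and homo against het (bottom), in gene order along chromosome 17, with the median as a dashed line. The larger blue points are Olfr98, Olfr115 and Olfr120, the 3 genes with an unadjusted p under 0.05, and the medians are 0.22, 0.14 and 0.13.

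Of the 22 non-Olfr genes annotated within the span, 3 are protein-coding and had counts. Ubd, which encodes a ubiquitin-like modifier, had 0.0981, 0.309 and 0.995 in WT, 0.00, 0.113 and 0.673 in het and 0.00, 0.179 and 0.112 in homo CPM. H2-M3, a nonclassical class I molecule that presents formylated peptides, had 1.08, 1.95 and 3.65 in WT, 1.51, 1.81 and 2.42 in het and 1.496, 1.36 and 1.52 in homo CPM. H2-M2, another nonclassical class I gene, had 0.540, 0.711 and 0.663 in WT, 0.662, 0.793 and 0.792 in het and 0.680, 0.717 and 0.966 in homo CPM. Ubd and H2-M3 were highest in WT replicate 3, the library with the highest levels of Lyz2 and Ptprc, and H2-M2 was not. None of the 3 passed the threshold in a genotype comparison, and log2 fold changes of homo against WT were −2.17 (SE 1.27), −0.61 (SE 0.40) and 0.30 (SE 0.30). The list of 23 genes of OR choice and olfactory signalling, such as Lhx2, Ldb1, Ebf1, the demethylase gene Kdm1a, the cyclase gene Adcy3 and the receptor chaperone genes Rtp1 and Rtp2, had 0 genes called in each of the 3 genotype comparisons. Their log2 fold changes of homo against WT lay between −0.04 and 0.19, with a smallest unadjusted p of 0.257.

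Single receptors were called between replicate numbers, and not between genotypes. In a model with genotype as a term, libraries numbered 1 were compared with those numbered 2 and 3, a comparison chosen after the values were seen. In the libraries numbered 1, 3 of 44 genes were called lower (6.82%), beside 3.52% of all genes and 12.9% of the other Olfr genes. Another 2 of 44 were called higher (4.55%), beside 5.42% of all genes and 0.958% of the other Olfr genes. The median log2 difference was −0.10 for the 44 genes, −0.22 for the other Olfr genes and −0.03 for all genes tested. When scaled to the other Olfr genes the median of the 44 turned to 0.10, with 16 of 44 lower in the libraries numbered 1 in place of 29. Under that scaling 1 gene was called lower (Olfr110) and 3 higher (Olfr91, Olfr107 and Olfr127).

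Olfr110 (chr17:37492468-37500207, plus strand) had 1.91, 6.86 and 5.49 in WT, 2.84, 6.69 and 6.22 in het and 4.04, 5.95 and 6.47 in homo CPM. The 3 libraries numbered 1 were at 1.91 to 4.04 CPM and the other 6 at 5.49 to 6.86, without overlap. The log2 difference was −1.13 (SE 0.20, edgeR adjusted p 0.00351). It was called in each alternative that was run, with values from −1.41 to −0.88. Raw counts were 39, 222 and 149 in WT, 60, 177 and 157 in het, and 89, 166 and 174 in homo. Its copy Olfr111 had 1.72, 2.72 and 3.06 in WT, 3.07, 2.30 and 2.81 in het and 2.99, 3.80 and 3.61 in homo CPM, a log2 difference of −0.24 (SE 0.20, edgeR adjusted p 0.390), and its library numbered 1 was the lowest in WT and homo but the highest in het.

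Olfr119 (chr17:37696564-37702124, plus strand) had 1.28, 2.97 and 2.51 in WT, 1.70, 3.02 and 2.65 in het and 2.04, 3.26 and 2.23 in homo CPM. All libraries numbered 1 were below all others, with a log2 difference of −0.74 (SE 0.20, edgeR adjusted p 0.0232). Olfr122, whose upstream window shares a run with that of Olfr119, had a difference of −0.40 (SE 0.16, edgeR adjusted p 0.0917), which did not pass the threshold. Olfr132 (chr17:38129863-38134526, minus strand) had 3.73, 5.32 and 4.79 in WT, 3.36, 4.68 and 7.21 in het and 3.13, 5.38 and 5.95 in homo CPM. Its libraries numbered 1 were also the lowest, with a difference of −0.70 (SE 0.17, edgeR adjusted p 0.0148), and all of its 50-base windows are its own. Olfr119 was not called without WT replicate 1, het replicate 1, het replicate 2 or homo replicate 2, with edgeR adjusted p-values from 0.0527 to 0.127. Olfr132 was not called without het replicate 1 (0.0873) or homo replicate 1 (0.0993).

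Olfr91 (chr17:37090618-37098278, minus strand) moved the other way, with 1.08, 0.866 and 0.774 in WT, 1.70, 0.680 and 0.753 in het and 1.54, 0.968 and 0.966 in homo CPM. The libraries numbered 1 were the 3 highest, and the log2 difference was 0.78 (SE 0.22, edgeR adjusted p 0.0278). Olfr107 (chr17:37399226-37407477, plus strand) had 5.59, 3.34 and 2.17 in WT, 5.06, 3.51 and 3.13 in het and 4.81, 4.02 and 4.31 in homo CPM. It too was highest in the libraries numbered 1, with a difference of 0.62 (SE 0.19, edgeR adjusted p 0.0346). Neither gene was called when het replicate 1, het replicate 2, het replicate 3 or homo replicate 2 was left out. Olfr91 was also not called without homo replicate 1 or homo replicate 3, and Olfr107 without WT replicate 1 or WT replicate 3, so that neither call held without single libraries.

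Some marker genes of other cell types also differed in the libraries numbered 1. Respiratory ciliated cell markers were called higher for 2 of 3 genes and immature OSN markers for 2 of 4. Blood cell markers were called lower for 2 of 2 tested (Lyz2 and Ptprc). Horizontal basal cell markers (1 of 3), ventral zone markers (1 of 2), mature OSN markers (1 of 7) and vomeronasal markers (1 of 5 tested) each had a gene called higher, and of 4 Bowman gland markers 1 was called higher and 1 lower. No sustentacular, microvillous, olfactory ensheathing or dorsal zone marker was called. Of the 23 genes of receptor choice and signalling, 4 were called higher (Lhx2, Emx2, Atf5 and Gng13) and 0 lower. The summed level of the 7 mature OSN markers overlapped, at 6486 to 6926 CPM beside 6380 to 7349 CPM. What the replicate numbers stand for is not given in the sources used here, and the part of these markers in the receptor differences was not tested.

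**Figure D4:**
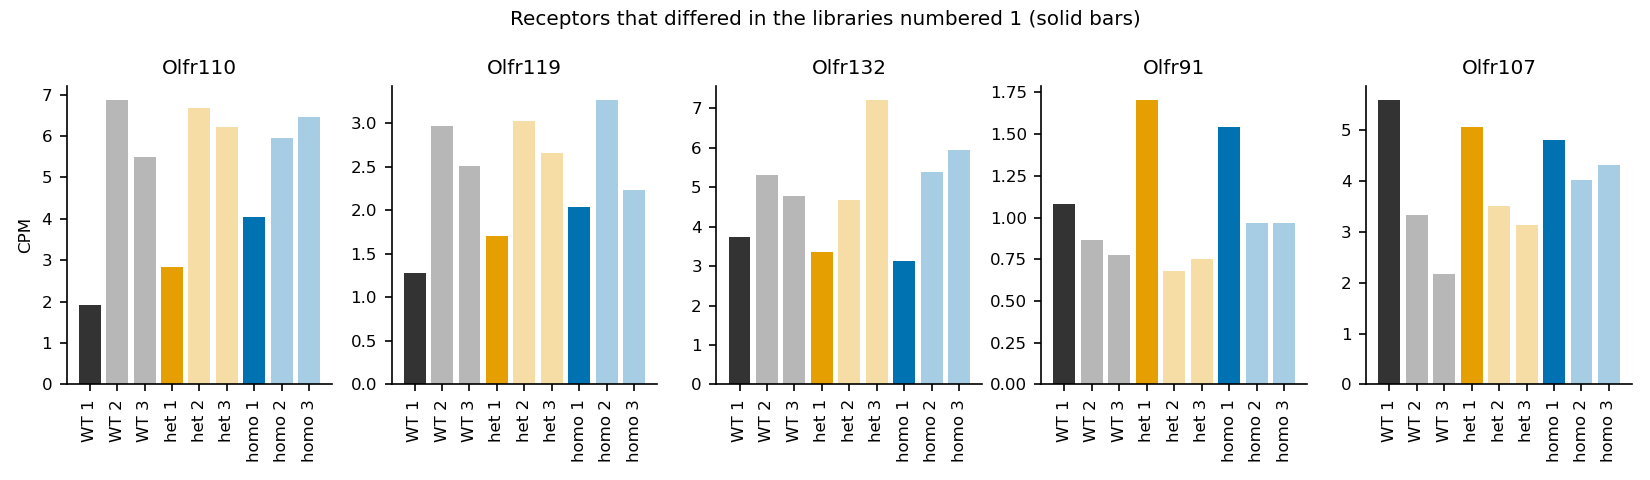
CPM of Olfr110, Olfr119, Olfr132, Olfr91 and Olfr107 in each library, with the axis of each panel starting at 0, bars coloured by genotype and the libraries numbered 1 drawn solid. In each genotype the library numbered 1 is the lowest for Olfr110, Olfr119 and Olfr132 and the highest for Olfr91 and Olfr107.

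WT replicate 3 held the lowest of the 9 libraries for 15 of 44 genes (34.1%), beside 16.7% of all genes tested and 23.7% of the other Olfr genes. The gene farthest below the median of the other 8 libraries, among those with at least 100 counts in all, was Olfr127 (chr17:37900437-37906795, plus strand), with 5.49, 2.69 and 1.22 in WT, 3.88, 2.87 and 3.72 in het and 4.67, 3.05 and 4.31 in homo CPM. Its level in WT replicate 3 was −1.64 on the log2 scale relative to that median. Its neighbours Olfr126, given above, and Olfr128 followed. Olfr128 (chr17:37920548-37926801, plus strand) had 1.57, 1.21 and 0.479 in WT, 1.14, 1.17 and 0.871 in het and 1.81, 1.004 and 1.152 in homo CPM, and WT replicate 3 was at −1.28 relative to the median of the others. These 3 genes are adjacent, on the same strand and 92.7% to 93.7% identical to their nearest relative, so they can share reads, and the part of shared reads in these levels was not tested. Olfr107, Olfr112 and Olfr135, which lie elsewhere in the cluster, were at −0.94, −0.88 and −0.81. Olfr135 had 2.65, 2.35 and 1.29 in WT, 1.84, 1.85 and 2.18 in het and 2.04, 2.40 and 2.38 in homo CPM.

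These genes were chosen after their values were seen, and a single library gives no test. In the same library Lyz2 and Ptprc, markers of myeloid cells and leukocytes, were at 329 and 109 CPM beside 47.1 to 152 and 11.3 to 43.3 CPM in the other 8. Sustentacular cell markers summed to 1705 CPM beside 2386 to 3008 CPM, and immature OSN markers to 986 beside 1293 to 1350 CPM. The sustentacular genes did not all move. In WT replicate 3 Cyp2g1 (1117 CPM) and Ermn (89.4 CPM) were lowest by a margin. Cyp1a2 was at 180.1 CPM beside 180.2 CPM in WT replicate 1, and Muc2 at 318 CPM was under het replicate 1 (325 CPM) only. Ventral zone markers were also lowest in WT replicate 3, at 199 beside 247 to 407 CPM. Olfactory ensheathing markers were lowest by a small margin, at 169 beside 169.5 to 255 CPM. The microvillous cell sum was highest, at 74.96 beside 48.5 to 63.6 CPM. That was mainly through Cftr, at 45.6 CPM beside 22.9 to 34.0 CPM. Trpm5 at 6.63 CPM was under het replicate 2 (6.69 CPM), and Ascl3 at 22.7 CPM lay within its range in the other libraries. Mature OSN markers were at 6522 CPM, within the range of the others. The part of these cell types in the receptor levels was not tested.

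**Figure D5:**
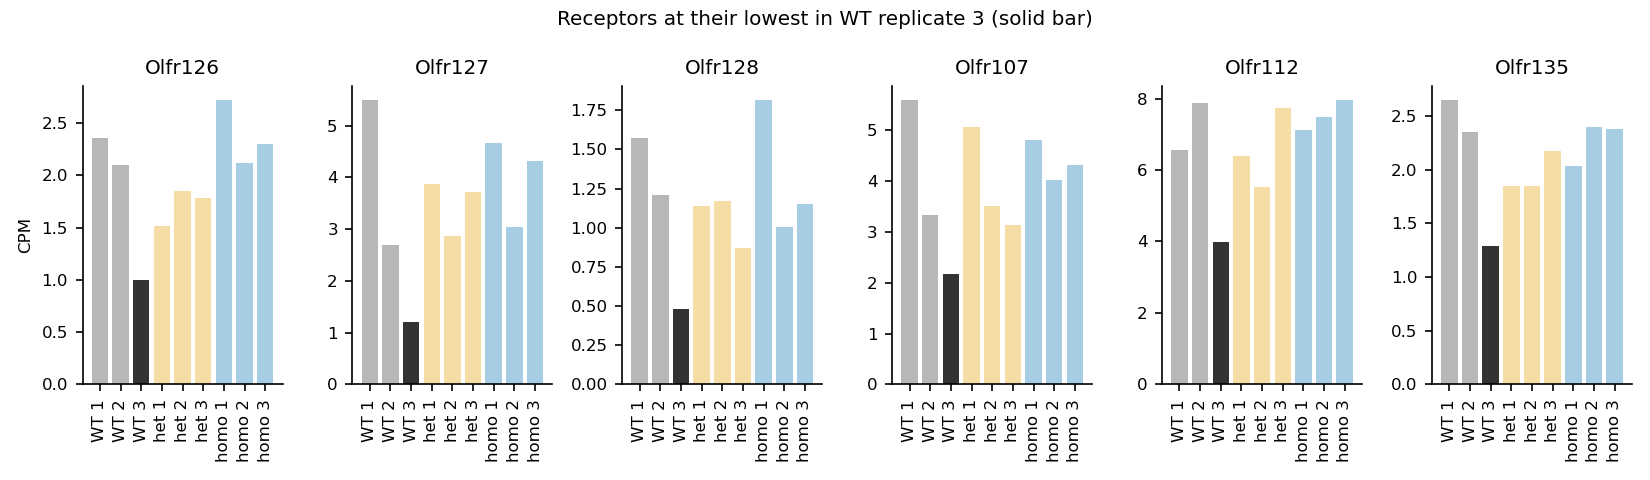
CPM of Olfr126, Olfr127, Olfr128, Olfr107, Olfr112 and Olfr135 in each library, with the axis of each panel starting at 0, bars coloured by genotype and WT replicate 3 drawn solid. WT replicate 3 is the lowest of the 9 libraries in each panel, and WT replicates 1 and 2 are both above it.

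Across the 9 libraries the coefficient of variation had a median of 20.3% for the 44 genes and 23.4% for the other tested Olfr genes. The steadiest was Olfr95 at 9.07%, with 2.31, 2.29 and 2.73 in WT, 2.51, 2.34 and 2.77 in het and 2.72, 2.94 and 2.68 in homo CPM, and Olfr96 followed at 11.1%, with 5.25, 4.95 and 4.201 in WT, 4.40, 4.42 and 5.74 in het and 5.03, 4.27 and 5.24 in homo CPM. Olfr95 and Olfr96 are nearly free of shared windows, with 99.6% and 100% of their own. The genes that varied most were Olfr102 at 71.2% and Olfr108 at 49.2%, the 2 with the fewest counts.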

How the data were processed

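The authors made polyA-selected strand-specific libraries and, per the labels, trimmed reads with Trimmomatic 0.36, mapped them to mm10 with HISAT2 2.1.0 and counted them per gene with featureCounts (Subread 1.6.2). The authors deposited raw read counts for 24421 genes, which were used here. They also deposited a signal, normalized counts made with DESeq2 1.20.0, and the raw counts were checked to be the normalized ones times 1 size factor per library (0.806 to 1.28). The annotation release and the treatment of reads that map to several genes are not given in the sources used here.

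Counts were fitted with edgeR 4.0.16 (R 4.3.3, quasi-likelihood) for all genes with at least 10 counts over the 9 libraries (19775 genes), with TMM normalization and 1 spread estimate over all genotypes. The biological coefficient of variation was 23.3%. A gene was called at a Benjamini-Hochberg adjusted p under 0.05 and a fold change over 1.5, two-sided, with p-values adjusted over all genes. DESeq2 1.42.0 and limma-voom (limma 3.58.1) were alternatives, and the code was tested on simulated data. Summed levels have no test. Coding sequences were aligned with Biopython 1.88.

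Whether same-numbered libraries deviated together was checked, with r over 0.1 in every pair as the criterion (16156 genes). The criterion was met between WT and het (0.671, 0.452 and 0.612) and between het and homo (0.782, 0.307 and 0.110). It was not met between WT and homo (0.511, 0.291 and −0.102). Some libraries with different numbers also deviated together. The r was 0.595 between het 2 and homo 3, and 0.516 between het 3 and homo 2. Between WT and het the highest such r was 0.0262 (WT 2 and het 3). It is thus not established that the numbers mark pairs. The edgeR fit above used no pairing, and the replicate block was only an alternative.

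The receptor genes, gene lists and tests were chosen with earlier results of these data known. Named with values in each library are the 10 genes with the highest mean CPM, the 3 with the smallest unadjusted p in each comparison, those with p under 0.05, and those called in any fit. Olfr90, Olfr95, Olfr96, Olfr97, Olfr101, Olfr111, Olfr117 and the genes lowest in WT replicate 3 were added after their values were seen, as was the comparison of replicate numbers. A cell type marker list and a stretch of sequence are not reported here.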

Additional observations from a re-analysis of the deposited data

How the results depend on the processing

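The members called numbered 0 in each genotype comparison and in the test of any genotype difference under every alternative, and the replicate block changed no call: with the block the count was 0 and the median log2 fold changes of the 44 genes were 0.23, 0.13 and 0.13. Scaling to the other Olfr genes moved the median in homo against WT to 0.025, and the log2 ratio of the summed level to 0.045 in homo against WT and 0.028 in het against WT, by the construction of that scaling. When each library was left out in turn, medians ran from 0.16 to 0.29 in homo against WT, 0.10 to 0.20 in het against WT and 0.07 to 0.16 in homo against het, and the log2 ratios of the sums from 0.17 to 0.30, 0.08 to 0.22 and 0.04 to 0.15. Without the 3 libraries numbered 1, added after the data were seen, 0 genes were called and the ratios of the sums were 0.29, 0.19 and 0.11. Between replicate numbers, the count called lower was 1 after scaling to the other Olfr genes and 1 to 3 when a library was left out, and the count called higher was 1 under DESeq2 and 0 to 2 when a library was left out. The cause was not tested. Of 562 alternative values, 527 stayed on their side of the threshold or within 1 SD, 21 lost a call and 14 moved, and 0 changed sign. These values include only some single members, and the sign of 20, 29 and 17 of the 44 log2 fold changes was not fixed over the fits. They also leave out the median difference between replicate numbers, which turned from −0.10 to 0.10 when scaled to the other Olfr genes. Depth limits Olfr102 and Olfr108, and shared sequence limits copies such as Olfr98.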
